A study of Mus musculus with 31 samples.

Results

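The miR-302/miR-367 cluster was followed across the 16 small-RNA-seq libraries of mouse embryonic stem cells (mESCs). Its members are the rows of the miRNA table whose names start with mmu-miR-302 or mmu-miR-367, which gave 9 of the 507 miRNAs in the table. 5 members come from the 3p arm of a hairpin (miR-302a-3p, miR-302b-3p, miR-302c-3p, miR-302d-3p, and miR-367-3p) and 4 from the 5p arm (miR-302a-5p, miR-302b-5p, miR-302c-5p, and miR-302d-5p). The study asked how the RNA-binding protein Trim71 acts on *Ago2* mRNA in mESCs, and which miRNAs depend on this. All cells were of the ES-E14TG2a line, and there were 4 small-RNA-seq libraries for each of 4 genotypes, which were WT, *Ago2* KO, CLIPΔ, and the combination *Ago2* KO/CLIPΔ. In CLIPΔ mESCs the region of the *Ago2* 3'UTR to which Trim71 binds was deleted on both alleles, in *Ago2* KO mESCs the *Ago2* gene was knocked out, and the *Ago2* KO/CLIPΔ mESCs carried both changes. The WT mESCs, per the study, carry a FLAG-tag on both *Trim71* alleles. It lists the CLIPΔ, *Ago2* KO, and *Ago2* KO/CLIPΔ lines as FLAG-Trim71 mESCs too. The CLIPΔ and knockout lines are clones picked after genome editing. Cells for profiling were kept in 2i+lif medium, which holds mESCs in the naive state. Which clone gave which library is not given in the sources used here, so an effect of a genotype and an effect of a clone cannot be told apart. The RNA-seq comprised 12 libraries, 2 of WT, 2 of CLIPΔ, and 4 of each *Ago2* KO genotype.

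The miR-302/miR-367 cluster is a polycistron, a run of hairpins cut from 1 primary transcript by Drosha and Dgcr8 and then by Dicer into a 5p and a 3p arm. An Argonaute protein such as Ago2 keeps a strand of each duplex as the guide, and the guide finds mRNAs mainly through its seed, which is bases 2 to 8 from the 5' end. The cluster is known as a marker of pluripotent and early differentiating cells, most abundant in primed or epiblast-like cells, and in naive mESCs its seed is also carried at high level by the miR-290–295 cluster.

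In the mm10 genome (GRCm38.p6), the 5 hairpins lie on the plus strand of chromosome 3 between positions 127545228 and 127545807, a span of 580 bp, in the order *Mir302b*, *Mir302c*, *Mir302a*, *Mir302d*, and *Mir367*. The hairpins are 66 to 75 bp long and 43 to 65 bp apart. They lie in the intron between exons 8 and 9 of the 13 exons of *Larp7*, which encodes a protein that binds 7SK RNA and is transcribed from the other strand. The lncRNA gene *Gm51018* overlaps them on their own strand, from 127545089 to 127546903.

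The mature sequences in RefSeq, read for 8 of the 9 members, set which members can act on the same sites, so those of both arms are shown here with the seed in capitals, together with the 3 other miRNAs of the table found with the seed of miR-302b-3p and the one most abundant in WT mESCs among those with the seed of miR-367-3p.
miR-302b-3p: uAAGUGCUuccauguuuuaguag
miR-302d-3p: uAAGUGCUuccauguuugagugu
miR-302c-3p: aAGUGCUUccauguuucagugg
miR-367-3p: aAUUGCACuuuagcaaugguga
miR-302b-5p: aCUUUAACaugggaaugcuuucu
miR-302c-5p: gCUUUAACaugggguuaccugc
miR-302d-5p: aCUUUAACauggaggcacuugcu
miR-302a-5p: aCUUAAACgugguuguacuugc
miR-295-3p: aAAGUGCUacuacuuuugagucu
miR-294-3p: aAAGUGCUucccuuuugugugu
miR-291a-3p: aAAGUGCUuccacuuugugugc
miR-25-3p: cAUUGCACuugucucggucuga
miR-302b-3p and miR-302d-3p share their first 17 bases and differ at 3 positions, U18G, A22G, and G23U, where the base of miR-302b-3p comes first and positions are counted from the 5' end. A read trimmed to those shared bases belongs to either of them. miR-302c-3p starts 1 base later, so its seed is shifted by 1 base against theirs, and the longest run it shares with either is 16 bases. The seed of miR-367-3p is that of the miR-25/92 family. Of the 5p arms, miR-302b-5p, miR-302c-5p, and miR-302d-5p share a seed that differs from that of miR-302a-5p.

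Values are TPM, read counts divided by transcript length and then by their sum, scaled to a sum of 1000000 over the table in each library. The number of reads behind them was inferred from the step between low values, and counted over the miRNAs with a known sequence it was 5315416 to 8190570 in WT, 3024456 to 7658400 in CLIPΔ, 807624 to 1047828 in *Ago2* KO, and 855946 to 1289790 in *Ago2* KO/CLIPΔ libraries. The libraries of both *Ago2* KO genotypes are thus shallower than every library with *Ago2*, and their columns are numbered where those of WT and CLIPΔ carry the letters A to D. Whether they were prepared apart is not given in the sources used here, and in comparisons across the *Ago2* genotype the knockout and such differences between the sets cannot be told apart. In the RNA-seq, *Ago2* was between 20.3 and 28.2 TPM in the WT and CLIPΔ libraries and between 1.51 and 2.87 TPM in the *Ago2* KO and *Ago2* KO/CLIPΔ libraries, and the pluripotency factors *Pou5f1* (2313 to 3262 TPM) and *Nanog* (581 to 1204 TPM) were present in all 12.

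In WT mESCs, the cluster gave 1.39% ± 0.188 (SD, n = 4) of all miRNA values, and most of that was miR-302d-3p. miR-302d-3p was at 8641, 7304, 9096, and 6747 TPM in WT libraries A to D, which made it number 19 of the 507 miRNAs by mean level. miR-302a-5p followed at 2639 ± 794 TPM, miR-302a-3p at 1995 ± 148 TPM, and miR-302b-3p at 923 ± 193 TPM (SD, n = 4 each). The 2 arms of miR-302a overlapped between libraries, from 1718 to 3654 TPM for the 5p and from 1807 to 2166 TPM for the 3p arm, so their order is not resolved. miR-302d-5p (157 ± 50.3 TPM), miR-302c-5p (146 ± 19.4 TPM), and miR-302c-3p (90.5 ± 37.7 TPM) came next, each overlapping its neighbour. miR-367-3p at 10.7 ± 1.59 TPM and miR-302b-5p at 10.5 ± 3.01 TPM were the lowest and also overlapped. miR-367-3p thus lay more than 2 orders of magnitude under miR-302d-3p, although both come from the same transcript.

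**Figure D1:**
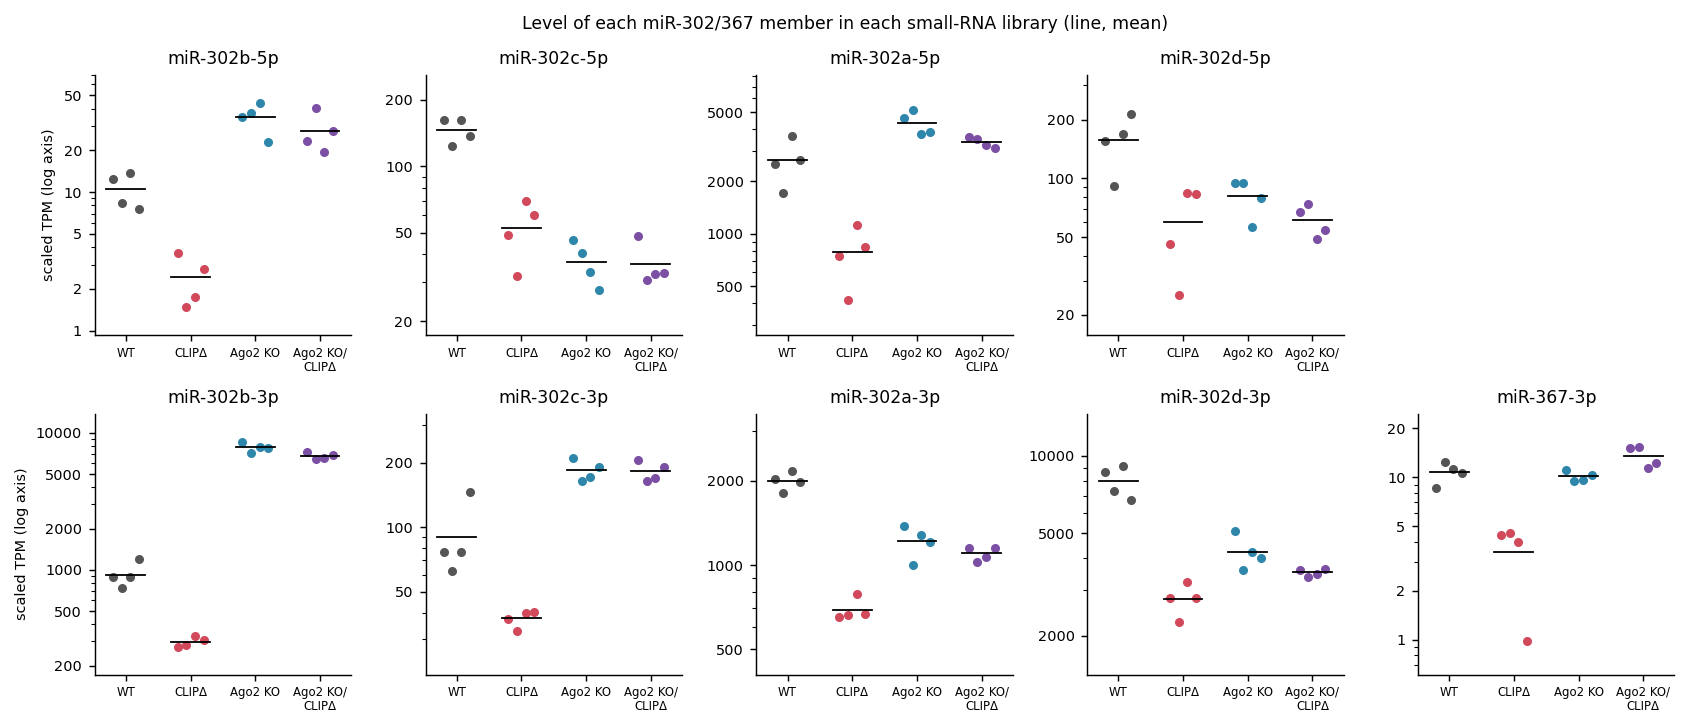
Level of each member in each library, in TPM scaled to a sum of 1000000 on a log axis that differs between panels. Points are libraries, in the order A to D for WT and CLIPΔ and 1 to 4 for the *Ago2* KO genotypes, and lines are means (n = 4). No CLIPΔ point reaches the lowest WT point for any of the 9 members, and miR-302b-3p lies between 6449 and 8603 TPM in the libraries without *Ago2*.

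The comparison of CLIPΔ with WT mESCs asks how the cluster stands once the Trim71-binding region of *Ago2* mRNA is gone. All of it was lower in CLIPΔ mESCs: each of the 9 members was lower in all 4 CLIPΔ than in all 4 WT libraries, which was so for 46 of the 507 miRNAs (9.07%). miR-302d-3p fell to 2790, 2257, 3228, and 2795 TPM in CLIPΔ libraries A to D, a log2 fold change of -1.52 (SE 0.17, adjusted p = 0.000237), or 2.87-fold lower. Adjusted p-values here and below are from limma with Benjamini–Hochberg adjustment over all miRNAs tested, with a threshold of 0.05. The highest CLIPΔ library, C at 3228 TPM, was below the lowest WT library, D at 6747 TPM. In such bulk libraries, fewer cells that express the cluster and less of it in each cell cannot be told apart.

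The other abundant members fell by a similar factor. miR-302a-5p, at 742, 418, 1129, and 834 TPM in CLIPΔ against 2524, 1718, 3654, and 2661 TPM in WT libraries A to D, fell by 1.79 on the log2 scale (SE 0.32, adjusted p = 0.00245). In both genotypes library B was the lowest and library C the highest for this miRNA. miR-302b-3p, at 275, 280, 327, and 309 TPM in CLIPΔ against 882, 731, 890, and 1190 TPM in WT, fell by 1.61 (SE 0.19, adjusted p = 0.000265), and miR-302a-3p fell by 1.53 (SE 0.16, adjusted p = 0.000156). miR-302d-5p, the least abundant of the 5 members that were tested, fell by 1.47 (SE 0.40, adjusted p = 0.0205), and its ranges were 25.2 to 84.1 TPM in CLIPΔ and 91.0 to 213 TPM in WT. Without library A of either genotype its adjusted p was 0.0548 (without WT library A) and 0.0613 (without CLIPΔ library A). Without WT library C or D its mean level was too low for it to be tested.

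Tested were the miRNAs whose deposited TPM averaged 100 or more over the libraries compared, which miR-302d-5p passed at 108 TPM and miR-302c-5p missed at 99.3 TPM. Only the WT libraries carried miR-302d-5p over this filter (157 TPM, against 59.6 TPM in CLIPΔ). Its entry thus favoured a lower call. All 5 members tested were lower, against 19 of the 227 miRNAs tested (8.37%), or 48 of 227 when the letters of the libraries were fitted as a block and 28 of 227 after centring log2 values on the median of each library. Their log2 fold changes were the lowest and the third to sixth lowest of the 227. When all 507 miRNAs were tested, all 9 members were lower, against 35 of 507 (6.90%), with a median log2 fold change of -1.52 beside 0.16 over all 507. In that fit miR-302b-5p was 3.38-fold lower (adjusted p = 0.0018), miR-302c-5p 2.83-fold (adjusted p = 0.00186), miR-367-3p 2.81-fold (adjusted p = 0.00985), and miR-302c-3p 2.25-fold lower (adjusted p = 0.00985). The size for the lowest members depends on the pseudocount: with 10 in place of 1, miR-302b-5p was 1.64-fold (adjusted p = 0.00199) and miR-367-3p 1.54-fold lower (adjusted p = 0.0035). The fall of miR-367-3p rests on few reads, 3 to 35 per CLIPΔ library against 56 to 101 per WT library, and miR-302b-5p on 9 to 25 against 42 to 97. The members come from 1 transcript, so their falls are not independent of each other.

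Summed over its members, the cluster gave 0.469% ± 0.0803 of all miRNA values in CLIPΔ against 1.39% ± 0.188 in WT mESCs (SD, n = 4 each). This is 2.98-fold lower, with no overlap between the groups (exact permutation test on log2 values, p = 0.0286, the smallest that 4 against 4 libraries can give). miR-302d-3p held 51.5% to 61.6% of the cluster in WT and 56.9% to 60.8% in CLIPΔ libraries, and its ratios to miR-302b-3p and to miR-302a-3p also overlapped between the genotypes. The 9 members also varied together between these 8 libraries. The correlation of log2 levels over the 36 pairs of members had a median of r = 0.88, from 0.49 for miR-367-3p with miR-302d-5p to 0.99 for miR-302d-3p with miR-302a-3p, which is a description of libraries that share the 2 genotypes.

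**Figure D2:**
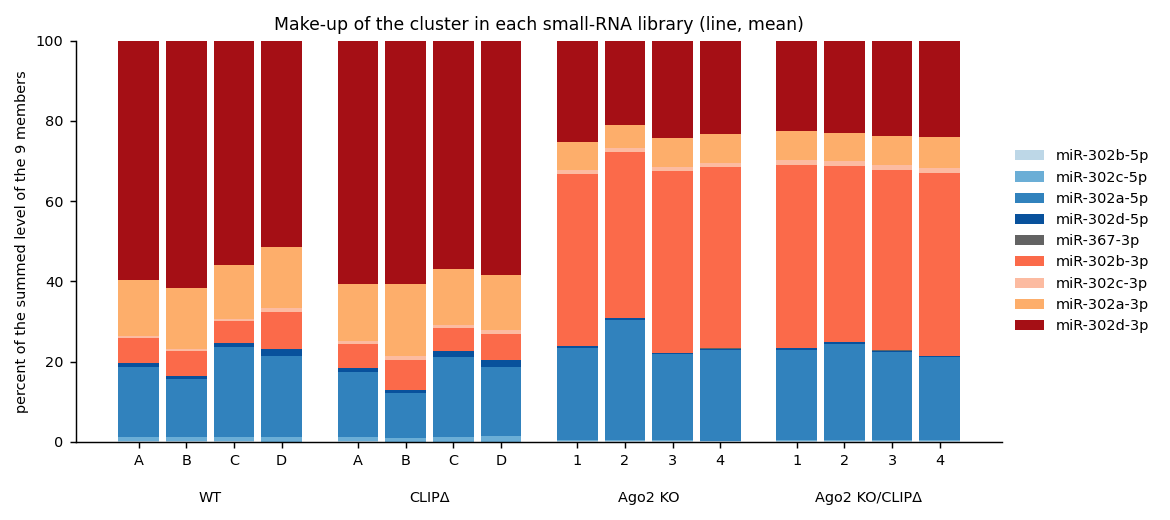
Percent of the summed level of the 9 members held by each, in each small-RNA library. In WT and CLIPΔ libraries miR-302d-3p holds more than 50% of every bar, and in the *Ago2* KO and *Ago2* KO/CLIPΔ libraries miR-302b-3p holds 41.3% to 45.6%.

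The comparison of *Ago2* KO with WT mESCs asks how the cluster stands without the main Argonaute protein. Its sum differed little, at 1.80% ± 0.145 against 1.39% ± 0.188 of all miRNA values (SD, n = 4 each; 1.30-fold higher, exact permutation p = 0.0286), and relative to the median miRNA of each library the log2 difference went from 0.37 to 0.11 (exact permutation p = 0.543). Its members moved in opposite directions. miR-302b-3p was at 8603, 7112, 7882, and 7707 TPM in *Ago2* KO libraries 1 to 4, against 731 to 1190 TPM in WT, which is 8.58-fold higher (log2 fold change 3.10, SE 0.16, adjusted p = 2.38e-08). miR-302d-3p, which shares its first 17 bases, was at 5102, 3609, 4215, and 3990 TPM, which is 1.88-fold lower than in WT (log2 fold change -0.91, SE 0.15, adjusted p = 0.000192). No *Ago2* KO library overlapped a WT library for either miRNA. Of all 507 miRNAs, 207 were higher and 127 lower without overlap, so this was common. The ratio of miR-302b-3p to miR-302d-3p was 0.0978 to 0.176 in WT libraries and 1.69 to 1.97 in *Ago2* KO libraries, so the most abundant member was another in each genotype. This ratio was chosen after its values were seen and carries no test. In *Ago2* KO mESCs the order of levels was miR-302b-3p, then miR-302a-5p and miR-302d-3p, which overlapped, then miR-302a-3p, miR-302c-3p, and miR-302d-5p, then miR-302c-5p and miR-302b-5p, which overlapped, and miR-367-3p last.

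Of the 6 members tested, 3 were higher in *Ago2* KO mESCs, against 120 of 240 miRNAs (50%), and 3 were lower, against 79 of 240 (32.9%). With most miRNAs called, these counts are near the background and say little of the cluster. They also include miR-302c-3p (185 TPM in *Ago2* KO, 90.5 TPM in WT) and miR-302d-5p (81.3 and 157 TPM). Each passed the filter only through the genotype where it was higher. Besides miR-302b-3p, miR-302c-3p rose by 1.09 (SE 0.24, adjusted p = 0.00156) and miR-302a-5p by 0.75 on the log2 scale (SE 0.22, adjusted p = 0.00798). Besides miR-302d-3p, miR-302a-3p fell by 0.72 (SE 0.14, adjusted p = 0.000714) and miR-302d-5p fell by 0.91 (SE 0.27, adjusted p = 0.00854), with an overlap between the groups for miR-302d-5p. The median of the 240 miRNAs was itself 0.44 higher in *Ago2* KO, and with log2 values centred on the median of each library miR-302a-5p was no longer called (0.47 higher, adjusted p = 0.105). With all 507 miRNAs tested, 4 members were higher, against 225 (44.4%), and 4 were lower, against 134 (26.4%). This added miR-302b-5p, higher by 1.64 (adjusted p = 0.000165), and miR-302c-5p, which fell by 1.97 (adjusted p = 3.12e-06), from 123 to 163 TPM in WT to 27.6 to 46.5 TPM in *Ago2* KO libraries. miR-367-3p was at 10.1 ± 0.697 TPM in *Ago2* KO and 10.7 ± 1.59 TPM in WT (SD, n = 4 each; adjusted p = 0.81), with 9 to 10 reads in each *Ago2* KO library.

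The comparison of *Ago2* KO/CLIPΔ with *Ago2* KO mESCs asks the same of cells that lack *Ago2*. The differences were small. miR-302a-5p, at 3608, 3507, 3224, and 3111 TPM in *Ago2* KO/CLIPΔ against 4639, 5132, 3728, and 3834 TPM in *Ago2* KO libraries 1 to 4, fell by 0.36 on the log2 scale (SE 0.10, adjusted p = 0.0125). miR-302d-3p fell by 0.25 (SE 0.10, adjusted p = 0.0435) and miR-302b-3p fell by 0.20 (SE 0.08, adjusted p = 0.0435). The groups did not overlap for miR-302a-5p, which was so for 93 of the 507 miRNAs in this direction, and overlapped for the other 2. These 3 of the 5 members tested were lower, against 71 of 232 miRNAs (30.6%), and the median log2 fold change of the members (-0.20) was close to that of all 232 (-0.17).

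These calls depend on the fit. When all 507 miRNAs were tested, 1 member passed (miR-302a-5p), against 90 of 507 lower (17.8%), and 4 passed with the replicate number as a block. The adjusted p was 0.0546 without and 0.0133 with the block for miR-302d-3p, 0.0636 and 0.0212 for miR-302b-3p, and 0.136 and 0.0374 for miR-302d-5p. In the fit on all 16 libraries no member passed by limma's test, with an adjusted p of 0.353 for miR-302a-5p, and none had an unadjusted p under 0.05. miR-302c-3p was at 183 ± 18.9 TPM in *Ago2* KO/CLIPΔ and 185 ± 21.0 TPM in *Ago2* KO mESCs (SD, n = 4 each). miR-367-3p was higher in every *Ago2* KO/CLIPΔ library (11.4 to 15.3 TPM) than in any *Ago2* KO library (9.49 to 11.01 TPM), on 9 to 16 reads. Its adjusted p by limma was 0.278, and 69 of the 507 miRNAs were higher without overlap. The sum of the cluster went from 1.80% ± 0.145 to 1.51% ± 0.0643 of all miRNA values (1.19-fold lower, exact permutation p = 0.0286).

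**Figure D3:**
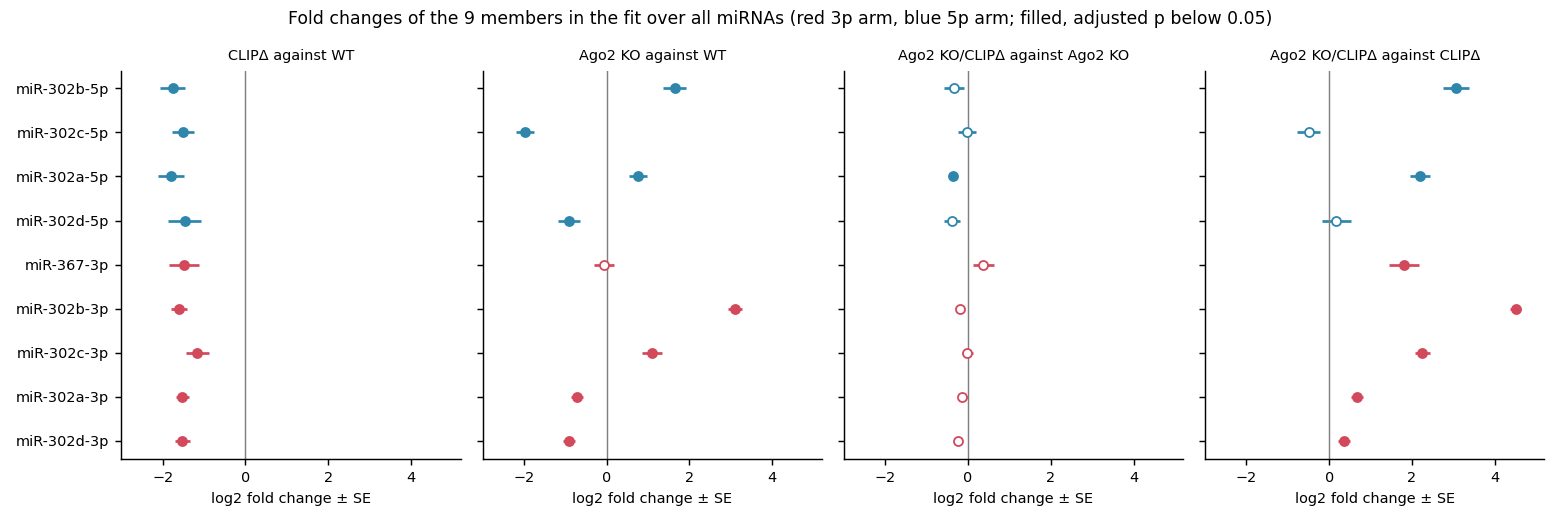
Log2 fold change and SE of each member in 4 comparisons, from the fit over all 507 miRNAs with 4 libraries per genotype, in red for the 3p and blue for the 5p arm, filled where the adjusted p was below 0.05. The 9 members lie between -1.79 and -1.17 in CLIPΔ against WT, and within 0.40 of 0 in *Ago2* KO/CLIPΔ against *Ago2* KO.

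Whether the deletion acted differently with and without *Ago2* was tested as the interaction in a model over all 16 libraries. The fall was smaller without *Ago2* for all 5 members tested, against 57 of 249 miRNAs (22.9%) with a difference in that direction. One of the 5, miR-302c-3p, passed the filter, at a mean of 124 TPM, only through the libraries without *Ago2*. The difference between the log2 fold changes was 1.44 (SE 0.36, adjusted p = 0.00315) for miR-302a-5p, 1.41 (SE 0.20, adjusted p = 2.26e-05) for miR-302b-3p, and 1.39 (SE 0.18, adjusted p = 1.04e-05) for miR-302a-3p. It was 1.27 (SE 0.20, adjusted p = 6.66e-05) for miR-302d-3p and 1.15 (SE 0.29, adjusted p = 0.00352) for miR-302c-3p. The median over all 249 miRNAs was -0.13. With all 507 miRNAs tested, 8 of the 9 members passed, against 81 of 507 (16%). Of these, miR-302b-5p was lost with a pseudocount of 10 (difference 0.46, adjusted p = 0.154). miR-302d-5p did not pass, with a difference of 1.08 and an adjusted p of 0.0726, or 0.0007 with the letters and numbers of the libraries as a block. This test rests on differences within each set of libraries, so only a shift between the sets that is constant on the log2 scale cancels. Differences between the sets in depth, or between clones, need not be constant. Their part in this result was not tested.

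Against CLIPΔ mESCs, the *Ago2* KO/CLIPΔ mESCs were higher in all 5 members tested, beside 115 of 249 miRNAs higher (46.2%) and 90 lower (36.1%). Of these members, miR-302c-3p passed the filter only through the *Ago2* KO/CLIPΔ libraries (183 TPM, against 37.6 TPM in CLIPΔ). Its entry thus favoured a call in this direction. miR-302b-3p was at 7293, 6449, 6578, and 6872 TPM in *Ago2* KO/CLIPΔ libraries 1 to 4 against 275 to 327 TPM in CLIPΔ, which is 22.8-fold higher (log2 fold change 4.51, SE 0.13, adjusted p = 5.12e-10). miR-302c-3p was higher by 2.25 (SE 0.15, adjusted p = 1.02e-07), miR-302a-5p by 2.19 (SE 0.26, adjusted p = 1.15e-05), and miR-302a-3p by 0.67 (SE 0.14, adjusted p = 0.000746). miR-302d-3p was higher by only 0.36 (SE 0.14, adjusted p = 0.0343), and was no longer called after centring on the library median (0.22 higher, adjusted p = 0.249), with array weights (adjusted p = 0.0669), or without any 1 of *Ago2* KO/CLIPΔ libraries 1 to 4 (adjusted p = 0.0606 to 0.0815) or CLIPΔ library A (adjusted p = 0.052). With all 507 miRNAs tested, 7 members were higher, against 202 (39.8%), and no member was lower, against 171 (33.7%). The 2 that were not called were miR-302c-5p, at 36.2 ± 8.39 TPM against 52.7 ± 16.2 TPM, and miR-302d-5p, at 61.2 ± 11.6 TPM against 59.6 ± 28.9 TPM (SD, n = 4 each). miR-302c-5p was called lower with array weights (adjusted p = 0.00504) and without CLIPΔ library B (adjusted p = 0.012). With a pseudocount of 10, miR-302b-5p went from 8.36-fold to 2.98-fold higher and miR-367-3p from 3.48-fold to 1.75-fold higher, both still called. The summed level was 3.25-fold higher (1.51% ± 0.0643 against 0.469% ± 0.0803, exact permutation p = 0.0286).

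The 2 arms of a hairpin come from the same precursor, so their ratio does not depend on how much of the cluster is transcribed. No difference in it was detected between CLIPΔ and WT mESCs. The log2 ratio of 5p to 3p was 0.76 ± 0.57 in WT and 0.42 ± 0.35 in CLIPΔ for miR-302c, 0.36 ± 0.34 and 0.09 ± 0.52 for miR-302a, and -5.70 ± 0.55 and -5.66 ± 0.63 for miR-302d (SD, n = 4 each). None of these 3 hairpins passed limma's test (adjusted p of 0.962 to 1), and neither did any of the 122 hairpins tested (0%), of which 7 had an unadjusted p under 0.05 and 5 were called with the letters of the libraries as a block. The miR-302b hairpin, whose 5p arm was too low, was not tested there. Between *Ago2* KO/CLIPΔ and *Ago2* KO mESCs none of the 4 hairpins passed either (limma adjusted p = 0.841 to 0.978), nor did any of the 124 hairpins tested (0%), of which 4 had an unadjusted p under 0.05.

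**Figure D4:**
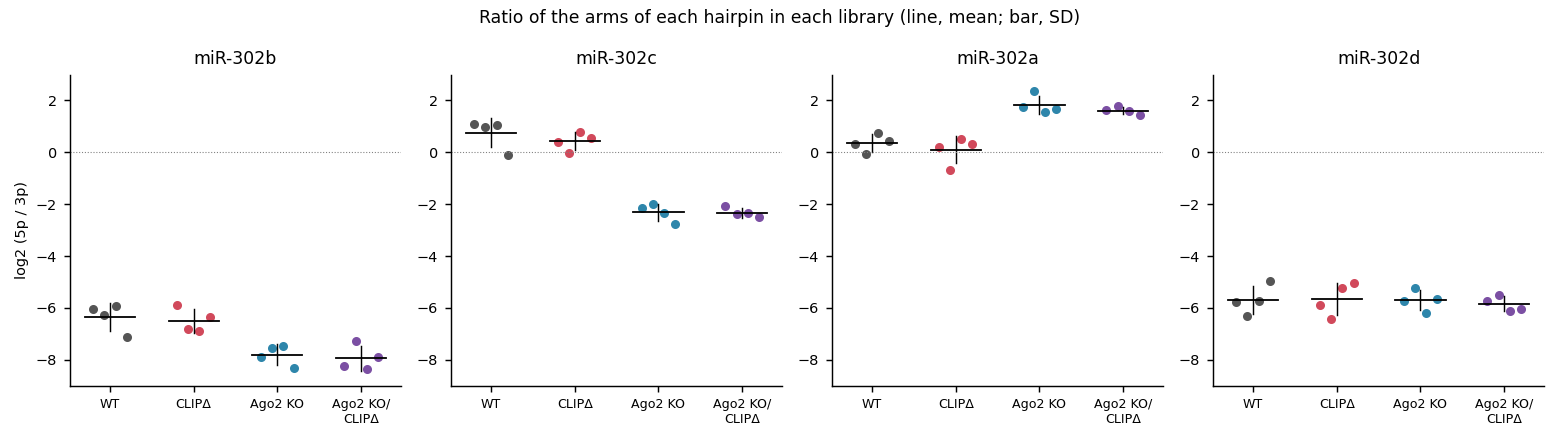
Log2 of the ratio of the 5p to the 3p arm of 4 hairpins in each library, on the same axis for all; lines are means and bars SD (n = 4). The miR-302c points lie above -0.1 in the libraries with *Ago2* and below -1.9 in those without it, and the miR-302d points lie between -6.43 and -4.98 in all.

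Between *Ago2* KO and WT mESCs the arm ratios moved in 3 of the 4 hairpins, against 100 of 129 hairpins tested (77.5%), so a moved ratio was the common case. The 5p to 3p ratio of miR-302c was 8.36-fold lower in *Ago2* KO mESCs (log2 -3.06, SE 0.29, adjusted p = 2.62e-06). In WT libraries it was from 0.94 in D to 2.11, with the 5p arm the higher in A to C, and in *Ago2* KO libraries from 0.149 to 0.252, with the 3p arm dominant. The ratio of miR-302b was 2.75-fold lower (log2 -1.46, SE 0.30, adjusted p = 0.000924), and that of miR-302a was 2.77-fold higher (log2 1.47, SE 0.25, adjusted p = 0.000225), from 0.95 to 1.69 in WT to 2.92 to 5.10 in *Ago2* KO libraries. The ratio of miR-302d, the hairpin with the most lopsided arms after miR-302b, differed by a log2 of 0.0016 (SE 0.30, adjusted p = 0.996). *Ago2* KO/CLIPΔ against CLIPΔ mESCs gave -2.75 (SE 0.23, adjusted p = 7.28e-07) for miR-302c and -1.45 (SE 0.29, adjusted p = 0.000754) for miR-302b. The same comparison gave 1.52 (SE 0.27, adjusted p = 0.000275) for miR-302a and -0.19 (SE 0.30, adjusted p = 0.577) for miR-302d, where 109 of 131 hairpins were called (83.2%). There miR-302b-5p passed the filter, at a mean of 15.1 TPM, only through the *Ago2* KO/CLIPΔ libraries (27.7 TPM). In CLIPΔ it was at 2.42 TPM, on 9 to 25 reads per library. At that level the pseudocount of 1 enlarges the change in the miR-302b ratio. The loss of *Ago2* and the other differences between the 2 sets of libraries cannot be told apart here.

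The miR-302 3p members are a small part of the miRNAs with their seed. With miR-302a-3p counted by its name, 6 miRNAs of the table formed this pool: miR-302a-3p, miR-302b-3p, miR-302d-3p, and the miR-290–295 members miR-295-3p, miR-294-3p, and miR-291a-3p. The pool held 35.4% ± 0.734 of all miRNA values in WT and 29.9% ± 3.05 in CLIPΔ mESCs (SD, n = 4 each), and miR-295-3p alone was at 224776 TPM in WT. The share of the pool given by miR-302 was 2.76% to 3.38% in WT libraries and 0.936% to 1.49% in CLIPΔ libraries, a mean of 3.07% against 1.27% (exact permutation p = 0.0286). None of the 3 miR-290–295 members passed the test between CLIPΔ and WT, with log2 fold changes of -0.17 for miR-295-3p (SE 0.13, adjusted p = 0.38), -0.21 for miR-291a-3p (SE 0.21, adjusted p = 0.488), and -0.27 for miR-294-3p (SE 0.19, adjusted p = 0.334).

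Without *Ago2* the pool was smaller and miR-302 a larger part of it. The pool held 14.7% ± 0.501 of all miRNA values in *Ago2* KO and 12.6% ± 0.434 in *Ago2* KO/CLIPΔ mESCs, and the miR-302 share was 9.04% ± 0.666 and 9.04% ± 0.275 (SD, n = 4 each). Against WT the share was 5.97 percentage points higher in *Ago2* KO (exact permutation p = 0.0286), and between the *Ago2* KO genotypes it differed by 0.0016 percentage points (SE 0.36) (exact permutation p = 1). The miR-290–295 members did not move as 1 group: miR-295-3p fell by 1.40 (SE 0.10, adjusted p = 2.92e-07) and miR-294-3p by 1.67 (SE 0.18, adjusted p = 5.57e-06) from WT to *Ago2* KO, while miR-291a-3p was 0.34 higher (SE 0.15, adjusted p = 0.052).

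**Figure D5:**
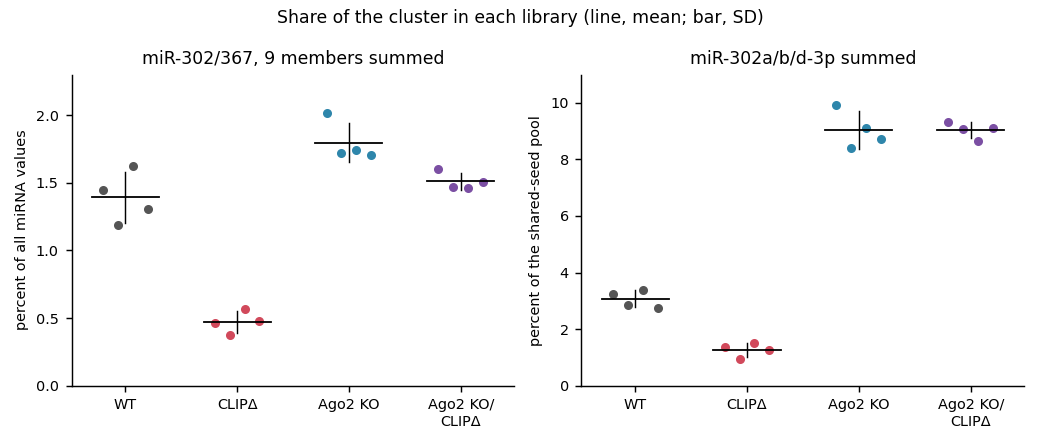
Left, summed level of the 9 members as a percent of all miRNA values in each library. Right, miR-302a-3p, miR-302b-3p, and miR-302d-3p as a percent of the 6 miRNAs with their seed. Lines are means and bars SD (n = 4). The CLIPΔ libraries are the lowest in both, at 0.371% to 0.567% and 0.936% to 1.49%.

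The seed of miR-367-3p is carried by 5 other miRNAs of the table, miR-25-3p, miR-92a-3p, miR-92b-3p, miR-363-3p, and miR-32-5p. All but miR-32-5p, at 10.2 TPM in WT mESCs, were far above miR-367-3p. In WT mESCs miR-25-3p was at 26906 TPM, miR-92a-3p at 11850 TPM, and miR-92b-3p at 2154 TPM on average, against 10.7 TPM for miR-367-3p. Between CLIPΔ and WT none of the 5 passed the test when all 507 miRNAs were tested, with log2 fold changes from -0.31 for miR-92a-3p (adjusted p = 0.322) to 0.32 for miR-25-3p (adjusted p = 0.139), where miR-367-3p fell by 1.49.

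Likeness to the cluster was measured as Pearson's r between the log2 level of a miRNA and the mean z score of the 9 members. Over the 16 libraries, the 5 highest of 244 other miRNAs were miR-450b-3p (r = 0.90), miR-125b-1-3p (0.84), miR-450b-5p (0.82), miR-92a-1-5p (0.76), and miR-182-3p (0.71). Among the members, r ran from 0.91 for miR-302a-5p to 0.31 for miR-302c-5p, so 3 members (miR-302d-5p, miR-302b-3p, and miR-302c-5p) were less like the mean of the cluster than these other miRNAs were. Within the 8 WT and CLIPΔ libraries the 5 highest of 222 were miR-31-5p (r = 0.98), miR-411-5p (0.97), miR-450b-3p (0.94), miR-411-3p (0.94), and miR-92a-1-5p (0.93). miR-450b-3p and miR-92a-1-5p were in both lists. miR-450b-3p, which comes from an X-linked cluster, went from 171 ± 28.4 TPM in WT to 50.1 ± 7.18 in CLIPΔ, 144 ± 29.1 in *Ago2* KO, and 100 ± 10.2 in *Ago2* KO/CLIPΔ mESCs (SD, n = 4 each). The libraries of a genotype share that genotype, and those of the 2 sets share their depth, so these correlations describe the libraries and carry no test.

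In the RNA-seq, *Larp7*, in whose intron the cluster lies on the other strand, was at 66.0 and 55.9 TPM in WT and at 79.4 and 59.4 TPM in CLIPΔ mESCs. The 2 genotypes overlapped, and the log2 fold change of 0.18 (SE 0.21, adjusted p = 1) was smaller than its SE, so its direction is not resolved. *Larp7* was between 26.1 and 29.8 TPM in *Ago2* KO and between 24.9 and 30.8 TPM in *Ago2* KO/CLIPΔ libraries (log2 fold change -0.01, SE 0.08, adjusted p = 0.961). Each of these libraries was lower than every WT or CLIPΔ library, a difference that was not tested.

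10 genes known as targets of the miR-302 or miR-290 seed were looked up among the mRNAs: *Cdkn1a*, *Lats2*, *Rbl2*, *Lefty1*, *Lefty2*, *Tgfbr2*, *Rhoc*, *Casp8*, *Mbd2*, and *Akt1*. 8 of them were tested between CLIPΔ and WT, and none passed limma's test, nor did any of the 11642 genes tested (0%), of which 604 had an unadjusted p under 0.05, none of them on the list. This comparison rests on 2 libraries of each genotype. *Cdkn1a*, which encodes a cell cycle inhibitor, was at 624 and 433 TPM in CLIPΔ and 471 and 387 TPM in WT libraries (log2 fold change 0.28, SE 0.24, adjusted p = 1). *Lefty2*, an inhibitor of Nodal signalling, was at 112 and 87.0 TPM in CLIPΔ and 156 and 115 TPM in WT libraries (log2 fold change -0.43, SE 0.23). *Lefty1* was at 12.4 and 21.8 against 20.3 and 20.8 TPM. With the replicate number as a block, the unadjusted limma p was 0.00395 for *Lefty2* and 0.0363 for *Cdkn1a*. It was under 0.05 for 2508 of the 11642 genes. Neither gene was called in that fit (adjusted p = 0.0759 and 0.201), where 333 genes were.

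Between *Ago2* KO/CLIPΔ and *Ago2* KO mESCs 7 of the list were tested and none passed, against 353 of 10956 genes (3.22%), or 804 with the replicate number as a block. In both genotypes replicates 1 and 2 stood apart from replicates 3 and 4. *Lefty2* was at 143, 149, 260, and 250 TPM in *Ago2* KO/CLIPΔ libraries 1 to 4 against 88.4, 85.6, 140, and 133 TPM in *Ago2* KO libraries 1 to 4, so it was higher in each library than in its counterpart of the same number. It missed the test as fitted (log2 fold change 0.82, SE 0.24, adjusted p = 0.107) and passed with the replicate number as a block (adjusted p = 0.000785). The same difference was 0.74 in replicates 1 and 2 alone and 0.90 in replicates 3 and 4 alone. *Lefty1* was at 14.0, 13.9, 49.2, and 48.1 TPM against 15.8, 14.8, 39.96, and 35.2 TPM, which is lower in replicates 1 and 2 and higher in 3 and 4 (adjusted p = 0.929, or 0.574 with the block). *Cdkn1a* was at 251 to 273 against 223 to 255 TPM (log2 fold change 0.12, SE 0.06, adjusted p = 0.355).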

How the data were processed

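Small RNAs and mRNAs of mESCs were sequenced in 16 and 12 libraries. The authors removed adapters with cutadapt, aligned to mm10 using HISAT2 (v2.1.0), took HTSeq counts per gene, with its longest transcript as the gene model, and deposited TPM for each library. No feature of the tables (507 miRNAs, 15034 genes) is at 0 in any library. The CLIP peak list was not used.

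miRNA TPM was divided by the sum of its library (996976 to 999393) and scaled to 1000000. Tests used limma 3.58.1 (lmFit, eBayes with trend) in R 4.3.3 on log2(scaled TPM + 1) for miRNAs with a mean deposited TPM of at least 100, on log2(5p/3p) for hairpins with at least 10 in both arms, and on log2(TPM + 1) for genes of at least 1 TPM. Fold changes of levels on these scales understate those of low features. Both arms of a ratio also had the pseudocount of 1 added. A change in ratio can thus be overstated or understated where 1 arm is low. The study used edgeR on counts, which TPM does not allow. Adjusted p-values are Benjamini–Hochberg, threshold 0.05. Single values were compared by exact permutation tests, two-sided (scipy 1.17.1). limma was tested on simulated data. Reads were inferred as whole multiples of the step between low values times the mature length minus 1 (within 0.02 for at least 99.1% of low values of single-locus miRNAs); 442 of 507 miRNAs matched a RefSeq sequence (GRCm38.p6), 427 of them from a single locus. They cover counting error only, and the depth of the RNA-seq is unknown.

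Columns were assigned to genotypes by their names, with the code in the CLIPΔ columns read as the deletion. WT and CLIPΔ small-RNA columns carry letters that the labels do not tie to samples. Deviations from the group mean correlated between libraries of the same letter (r = 0.35 to 0.74) and number (r = 0.16 to 0.52), and for the *Ago2* KO RNA-seq (r = 0.32 to 0.43), so letters and numbers were taken to pair the libraries and a block was fitted as an alternative. With 2 pairs, the RNA-seq of WT and CLIPΔ does not allow that check. The labels call replicates biological, without saying whether cultures were separate.

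The members, the target list, and the tests were chosen with earlier results of these data known. Named beyond the members were the most abundant miRNAs with the same seed, the 5 most like the cluster, *Larp7*, and the target list. Alternatives were a pseudocount of 10 (0.1 for mRNAs), no filter, median centring, a fit on all 16 libraries, array weights, the block, and leaving out each library.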

Additional observations from a re-analysis of the deposited data

Results flagged for a closer look

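The fall of the cluster on deletion of the Trim71-binding region differed between mESCs with and without *Ago2*, by the interaction test over 16 libraries. The difference in log2 fold change was 1.15 for miR-302c-3p, 1.27 for miR-302d-3p, 1.39 for miR-302a-3p, 1.41 for miR-302b-3p, and 1.44 for miR-302a-5p.

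In 5 of the 82 groups of 4 libraries that were examined, 1 library lay far from the other 3 (its gap to the nearest, as a part of the range, above Dixon's 95% critical value); chance gives about 5% of groups. The highest CLIPΔ library for miR-302a-3p was C, at 787 TPM, where the other 3 were at 651 to 667 TPM. The lowest for miR-367-3p was CLIPΔ library D at 0.977 TPM, which is 3 reads. WT library D had the lowest miR-302c arm ratio, a log2 of -0.0937. *Ago2* KO library 1 had the highest share of the cluster, at 2.01% of all miRNA values. *Ago2* KO/CLIPΔ library 1 had the highest miR-302c-5p, at 48.7 TPM.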

How the results depend on the processing

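Of the 120 alternatives for the 9 members in CLIPΔ against WT, 118 kept the direction and the call, and the exceptions were miR-302d-5p without library A of WT or of CLIPΔ. Without WT library C or D, miR-302d-5p fell under the filter and was not tested, and these fits are not among the 120. The number of members called there was 5, 9 with no filter (which tests 4 more), and 4 to 6 without 1 library. For *Ago2* KO/CLIPΔ against *Ago2* KO it was 3, 1 with no filter or with median centring, 0 in the fit on all 16 libraries, and 1 to 4 without 1 library, so those calls are fragile: it was 1 without *Ago2* KO library 1, 3, or 4 or *Ago2* KO/CLIPΔ library 2, 3, or 4. For *Ago2* KO/CLIPΔ against CLIPΔ it was 5, and 3 to 5 without 1 library, with 3 without *Ago2* KO/CLIPΔ library 1 or 4. For the interaction it was 5, and 8 with no filter. The arm ratios called fell from 3 to 1 in both comparisons across the *Ago2* genotype with at least 100 TPM in both arms, where fewer hairpins are tested. The rise of the cluster sum in *Ago2* KO against WT (log2 0.37) was 0.11 (exact permutation p = 0.543) relative to the median miRNA; the cause was not tested. Without 1 library, log2 differences of the sum were -1.67 to -1.47, 0.30 to 0.45, -0.28 to -0.19, and 1.59 to 1.80 in the order of the report, where 3 against 4 libraries cannot give an exact p under 0.0571.

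With the replicate block, the members called were 5, 3, and 5 (CLIPΔ against WT, *Ago2* KO/CLIPΔ against *Ago2* KO, interaction) as without it, the target list gained 1 call (*Lefty2*), and no arm ratio of the cluster was called. In the fits over all miRNAs it added miR-302d-3p, miR-302b-3p, and miR-302d-5p in *Ago2* KO/CLIPΔ against *Ago2* KO (1 to 4 calls) and miR-302d-5p in the interaction, and it changed no other call of a member. The target list had 4 calls in replicates 1 and 2 alone (*Cdkn1a*, *Lefty2*, *Lats2*, *Mbd2*) and 3 in replicates 3 and 4 alone (*Lefty1*, *Lefty2*, *Rhoc*), a split chosen after seeing the data, in which 4157 of 10874 and 4238 of 11022 genes were called. Over all miRNAs, the calls in CLIPΔ against WT numbered 63, 100 in the fit on all 16 libraries, 123 with array weights, 125 with the block, and 136 with no filter, and those in *Ago2* KO/CLIPΔ against *Ago2* KO 121, against 51 in the fit on all 16 libraries. With no filter they went from 199 to 359 (*Ago2* KO against WT), 205 to 373 (*Ago2* KO/CLIPΔ against CLIPΔ), and 123 to 211 (interaction). Over all mRNAs they were 0 in CLIPΔ against WT, 333 with the replicate block, 42 without CLIPΔ replicate 1, and 186 without CLIPΔ replicate 2, and in *Ago2* KO/CLIPΔ against *Ago2* KO 353, 804 with the block, and 130 to 259 without 1 library. The reads behind miR-367-3p and miR-302b-5p set the limit for these members.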
